A study of Mus musculus with 4 samples.

Results

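The complement and coagulation genes described here are a list of 44 genes, chosen by their names and known roles. A gene was taken up where a probe set of the array was annotated with its symbol alone, and among several such probe sets the one with the highest 4-array mean was used. In this way 41 of the 44 genes were measured, of 18194 named genes in all. C4b shared its probe set with another gene, and C3 and Cfd were not analysed here. The 41 were divided by the cells that are known to make most of their product into 32 factors secreted by hepatocytes, 4 made by macrophages and other myeloid cells (C1qa, C1qb, C1qc and Cfp) and 5 activators and regulators made mainly outside hepatocytes (F3, Plau, Plaur, Plat and Thbd).

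The arrays held RNA from livers of mice at 10 months of age. The groups were diethylnitrosamine (DEN, a liver carcinogen) combined with feed that held 0.2% cholic acid (CA, a bile acid made by the liver), DEN combined with the control diet, the CA diet without DEN, and the control diet without DEN. Each group was a pool of livers from 3 to 5 mice on 1 array, so no difference below has a replicate check, no p-value was computed, and mouse-to-mouse variation cannot be told apart from the treatments. Strain, sex, the dose and age at DEN treatment, and the share of tumour tissue in each pool were not stated. Values are log2 expression levels, so that a difference of 1 is 2-fold. In a pool of whole livers, more or fewer cells of a type and more or less RNA per cell cannot be told apart.

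Coagulation factors circulate as inactive precursors of proteases, and their sequential activation ends with thrombin, which turns fibrinogen into fibrin. Plasmin, made from plasminogen by tissue-type and urokinase-type activators, dissolves fibrin again. Complement is a related cascade of plasma proteases and binding proteins. C1q starts the classical pathway, mannose-binding lectins start the lectin pathway, and both lead to the cleavage of C3 and C5 and to the membrane attack complex of the terminal components. Hepatocytes are the main source of most of these plasma proteins, while C1q comes mainly from tissue macrophages and dendritic cells. In human hepatocytes the bile acid receptor FXR is known to induce the fibrinogen and kininogen genes.

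As a check of the tissue, the 7 measured hepatocyte markers lay above the median level of all probe sets on average, and the log2 of their summed level was 16.92 in the DEN pool on the CA diet, 16.96 in the DEN pool on the control diet, 16.94 in the CA diet pool and 16.91 in the control diet pool. Alb, Ttr and Apoa1, near the top of the array's range, make up most of this sum, so it shows the tissue and not its constancy. Within the list, Tat differed by -1.65 after DEN on the CA diet and Ahsg by 0.95 after DEN on the control diet. The array medians ranged from 4.843 to 4.865. The 18 hybridization control probe sets, which carry no liver RNA, differed by at most 0.37 in any comparison, and their SD lay between 0.0736 and 0.0985. Of the 41 members, 40 had a mean at or above 4.855, the median of all probe sets. The exception was Plau, the urokinase-type plasminogen activator, with 3.86, 3.79, 3.90 and 3.92 in the DEN pool on the CA diet, the DEN pool on the control diet, the CA diet pool and the control diet pool. All 4 Plau values lie in the low range, where a level is close to the background of the array.

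The sequences around the start of 7 members are shown. They were chosen, among the 30 members with a window in the table, as neighbours on a chromosome with like or opposite differences below, and C9 as a further terminal gene. Plat, C1qa and Masp1 have no window in it, and that of Mbl1 is not shown. Windows run from 250 bases before to 50 bases after the annotated start, in the RefSeq table of build GRCm38.p6, written 5′ to 3′ on the strand of the gene. Capitals mark matches to the motifs given after the sequences. First come the genes of 3 terminal complement proteins with lower levels after DEN.
C8b, chr4:104766067-104766366, plus strand: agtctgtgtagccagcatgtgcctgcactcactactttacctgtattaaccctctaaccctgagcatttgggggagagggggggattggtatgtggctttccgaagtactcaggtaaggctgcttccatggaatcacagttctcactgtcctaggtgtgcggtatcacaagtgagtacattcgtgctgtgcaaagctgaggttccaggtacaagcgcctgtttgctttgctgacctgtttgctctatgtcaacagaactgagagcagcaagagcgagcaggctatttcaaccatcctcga
C8a, chr4:104876349-104876648, minus strand: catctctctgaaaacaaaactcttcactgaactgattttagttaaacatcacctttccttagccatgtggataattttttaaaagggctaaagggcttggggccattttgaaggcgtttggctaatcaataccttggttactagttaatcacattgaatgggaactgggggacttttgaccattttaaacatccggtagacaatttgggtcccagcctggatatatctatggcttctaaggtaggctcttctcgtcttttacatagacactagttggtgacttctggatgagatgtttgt
C9, chr15:6445096-6445395, plus strand: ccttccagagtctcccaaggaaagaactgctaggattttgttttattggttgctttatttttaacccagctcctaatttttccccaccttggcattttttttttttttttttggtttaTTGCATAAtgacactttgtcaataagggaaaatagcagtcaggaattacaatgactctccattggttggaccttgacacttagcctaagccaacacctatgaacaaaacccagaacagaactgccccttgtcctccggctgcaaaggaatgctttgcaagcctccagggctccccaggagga
The next 2 genes lie side by side on chromosome 8 and encode coagulation factor XI and prekallikrein, and their levels differed in opposite directions after DEN.
F11, chr8:45261982-45262281, minus strand: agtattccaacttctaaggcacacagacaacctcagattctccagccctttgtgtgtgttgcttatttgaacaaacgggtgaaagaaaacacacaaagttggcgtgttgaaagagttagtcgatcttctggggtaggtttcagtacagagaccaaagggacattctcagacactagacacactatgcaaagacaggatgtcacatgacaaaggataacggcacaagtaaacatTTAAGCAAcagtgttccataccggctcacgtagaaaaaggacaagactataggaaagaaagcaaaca
Klkb1, chr8:45294786-45295085, minus strand: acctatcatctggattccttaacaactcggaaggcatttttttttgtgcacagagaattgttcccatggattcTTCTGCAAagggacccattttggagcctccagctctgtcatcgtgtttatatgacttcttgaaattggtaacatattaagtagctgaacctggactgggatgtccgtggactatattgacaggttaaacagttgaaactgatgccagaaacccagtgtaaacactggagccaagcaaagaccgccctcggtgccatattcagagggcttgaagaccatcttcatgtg
The last 2 encode chains of C1q.
C1qb, chr4:136886151-136886450, minus strand: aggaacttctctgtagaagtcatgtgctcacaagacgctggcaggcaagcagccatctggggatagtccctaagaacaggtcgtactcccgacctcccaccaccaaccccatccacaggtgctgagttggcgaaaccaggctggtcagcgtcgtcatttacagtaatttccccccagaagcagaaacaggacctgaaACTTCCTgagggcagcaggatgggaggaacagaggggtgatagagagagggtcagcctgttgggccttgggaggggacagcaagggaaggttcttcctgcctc
C1qc, chr4:136892865-136893164, minus strand: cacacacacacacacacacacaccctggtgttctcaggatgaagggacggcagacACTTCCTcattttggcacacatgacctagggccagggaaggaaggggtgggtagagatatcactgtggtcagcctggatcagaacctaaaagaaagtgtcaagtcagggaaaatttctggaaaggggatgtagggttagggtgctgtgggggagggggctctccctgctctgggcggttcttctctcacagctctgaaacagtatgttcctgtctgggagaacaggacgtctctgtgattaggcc
On both strands, 5 motifs were searched, and none of the letters shown in capitals belongs to more than 1 of them. The C/EBP motif TTGCNNAA was found in windows of 8 of the 30 members with a window in the table (26.7%), against 10.8% of all 32851 windows of this length. These 8 were C9, F11, Klkb1, Fga, Fgb, F9, Hrg and Plaur. The PU.1 motif AGGAAGT was found in 3 of the 30 members (10%), which were C1qb, C1qc and Masp2, against 9.35% of all windows. The HNF1 motif was found for C4bp, F13b and Hc, and in 0.399% of all windows. The HNF4 motif CAAAGTCCA and the FXR motif were in none of the members' windows, and in 0.475% and 0.0396% of all windows. A match is a run of letters and not a measured binding site.

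With the control diet, the DEN pool sets livers after the carcinogen beside untreated ones. Most hepatocyte-secreted factors differed little, while C8b, C9, Mbl1 and 1 probe set of Masp1 had lower levels and F11, Kng1, Plat and the C1q chains higher levels. Of 41 members, Plat alone was at least 2-fold higher (0.63 with the mean over probe sets), where 3.82% of all genes were. Another probe set of C1qb differed by 1.10, against 0.51 on the one used. Of the members, 0 were at least 2-fold lower, where 0.632% of all genes were. The median difference was 0.12 over the members and -0.02 over all genes, and the median absolute difference was 0.263 against 0.208. From 1.5-fold on, 5 members were higher (12.2%) and 4 lower (9.76%), against 8.5% and 3.82% of all genes. Many members have high levels, and among the 2348 genes at least as high as the lowest hepatocyte-secreted member the shares beyond 1.5-fold were 7.79% higher and 8.01% lower. Of the 32 hepatocyte-secreted members, which are all in that range, 3.12% were higher and 12.5% lower by that much. Plat, Thbd, C1qa and C1qc, which make up 4 of the 5 higher members, have means below it.

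The same treatment on the CA diet gives a second pair of arrays that shares none with the first. There Plat passed 2-fold on the deposited values, as did 3.51% of all genes, and C8b was 2-fold lower or more, as were 1.17% of all genes. With low levels raised to 4.855, Plat was at least 1.89-fold higher on this diet and no longer passed, nor did it with the mean over probe sets (0.77). From 1.5-fold on, 5 members were higher and 4 lower, beside 7.96% and 4.64% of all genes, and 7.5% and 11.2% of the genes of high level. Between both diets the DEN effects of the 41 members ran in the same direction for 34 (82.9%), and their Pearson correlation was 0.93. Over all 18194 genes the direction was shared by 70.4% and the correlation was 0.81, and over the 2348 genes of high level the values were 83.9% and 0.88. Genes are not independent replicates, so these correlations describe the arrays only, and all 4 arrays were normalized together. The likeness of the DEN effects is therefore close to that of other highly expressed genes.

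**Figure D1:**
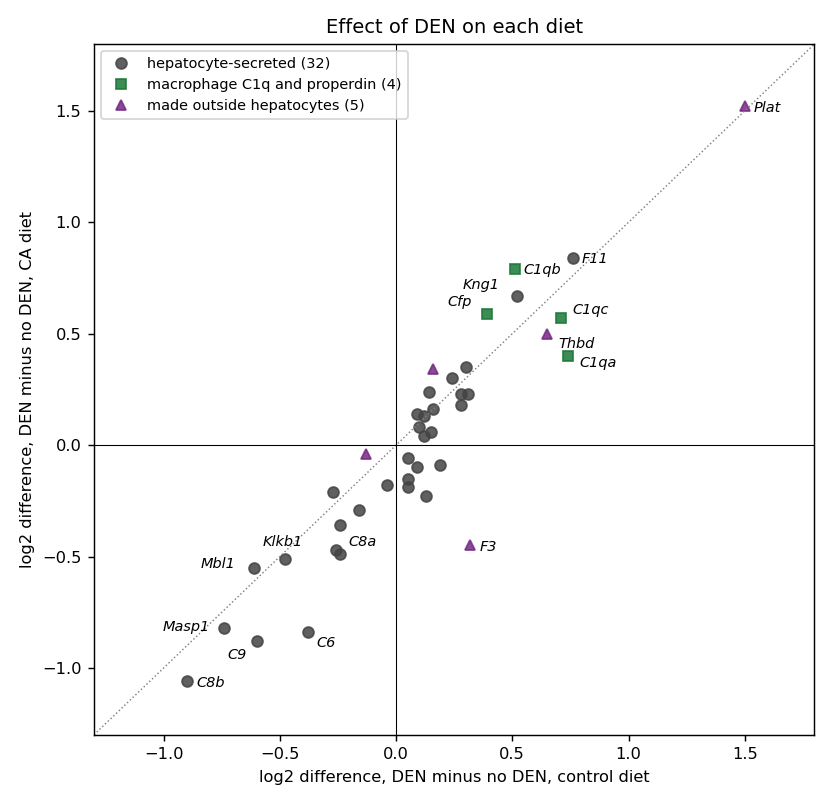
Log2 difference of each of the 41 measured members, DEN minus no DEN, for control diet pools (x axis) and for CA diet pools (y axis), by cell source. Each point is 1 gene and each axis the difference of 2 arrays; the dotted line marks equal differences. Plat lies farthest out, at 1.52 on the y axis, and C8b lies at -0.90 and -1.06, while F3 lies at 0.32 and -0.45.

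The terminal pathway assembles C5, C6, C7, C8 and C9 into a pore in the target membrane. Of its 6 measured genes, 5 had lower levels after DEN on each diet (medians -0.65 on the CA diet, -0.32 on the control diet). Over all genes, 9359 of 18194 were lower on the CA diet and 9578 on the control diet. C8b, the beta chain of C8, had the lowest difference of all 41 members in both comparisons. Its level was 9.81 in the DEN pool on the CA diet and 10.08 in the DEN pool on the control diet, against 10.88 in the CA diet pool and 10.98 in the control diet pool. C8b was thus lower after DEN by 1.86-fold on the control diet and 2.09-fold on the CA diet. C9, which polymerises to line the pore, stood at 12.39 and 12.40 in the DEN pools on the CA and control diet, against 13.28 and 13.01 in the pools without DEN on these diets. This makes differences of -0.88 and -0.60. Of the 2348 genes of high level, 44.3% were lower after DEN on both diets. C6, which joins the growing complex after C5b, had levels of 9.68 and 9.80 in the DEN pools on the CA and control diet, against 10.52 and 10.18. C8a, the alpha chain of C8, had 12.29 and 12.26 after DEN on the CA and control diet, against 12.76 and 12.52. The gamma chain C8g differed by -0.29 and -0.16 on these diets. Hc, the gene of C5, was the exception, with 12.82 and 12.88 in the DEN pools on the CA and control diet, against 12.74 and 12.77.

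C8a and C8b lie next to each other on chromosome 4 with no protein-coding gene between them, and their windows are printed above. The difference after DEN was larger for C8b than for C8a on each diet (-1.06 and -0.47 on the CA diet, -0.90 and -0.26 on the control diet). C6, C8a and C9 were also the terminal genes with the highest differences on the CA diet without DEN, at 0.35, 0.24 and 0.27, so the CA diet pool held the highest of the 4 levels for all 3. After DEN these 3 genes differed between the diets by -0.12, 0.04 and -0.01.

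The lectin pathway is triggered by mannose-binding lectins, which recognise sugars on microbes and bring along the serine proteases Masp1 and Masp2. Mbl1, mannose-binding lectin A, had 10.20 and 10.31 in the DEN pools on the CA and control diet, against 10.75 and 10.92 without DEN. Mbl2, mannose-binding lectin C, differed by only 0.04 and 0.12 on these diets. Masp1 had 9.63 and 9.73 in the DEN pools on the CA and control diet, against 10.46 in each of the pools without DEN, which is 1.77-fold and 1.67-fold lower. Masp1 gives rise to several proteins by splicing and has 5 probe sets here. The other 4 differed between -0.24 and 0.20 after DEN, so that the lower level of Masp1 rests on 1 probe set. Masp2 differed by -0.49 on the CA diet and -0.24 on the control diet, with its second probe set at -0.45 and -0.44. C2, the protease that classical and lectin pathway share, differed by 0.23 and 0.28 on these diets. Its other probe sets differed by 0.05 and 0.33 on the CA diet and by -0.10 and 0.10 on the control diet. C4bp, which binds C4b and holds the pathway in check, had 12.02 and 12.29 in the DEN pools on the CA and control diet, against 11.79 and 11.98.

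In the contact system, members of one reaction chain differed in opposite directions. Coagulation factor XI, encoded by F11, is activated by factor XII and in turn activates factor IX. Its level was 9.80 and 9.79 in the DEN pools on the CA and control diet, against 8.96 and 9.03 without DEN. These are folds of 1.79 and 1.70, the largest increases among hepatocyte-secreted members in both comparisons. Klkb1, plasma prekallikrein, is the closest relative of factor XI and its neighbour on chromosome 8. Klkb1 stood at 10.92 and 11.05 in the DEN pools on the CA and control diet, against 11.43 and 11.53 without DEN, so that it was lower where F11 was higher. Kng1, the gene of kininogen, which carries prekallikrein and factor XI in plasma and releases bradykinin, had 13.73 and 13.70 in these DEN pools, against 13.06 and 13.18. Its other probe set differed by 0.30 on the CA diet and 0.47 on the control diet. F12, the starter of the contact system, differed by -0.23 on the CA diet and 0.13 on the control diet, without a common direction.

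**Figure D2:**
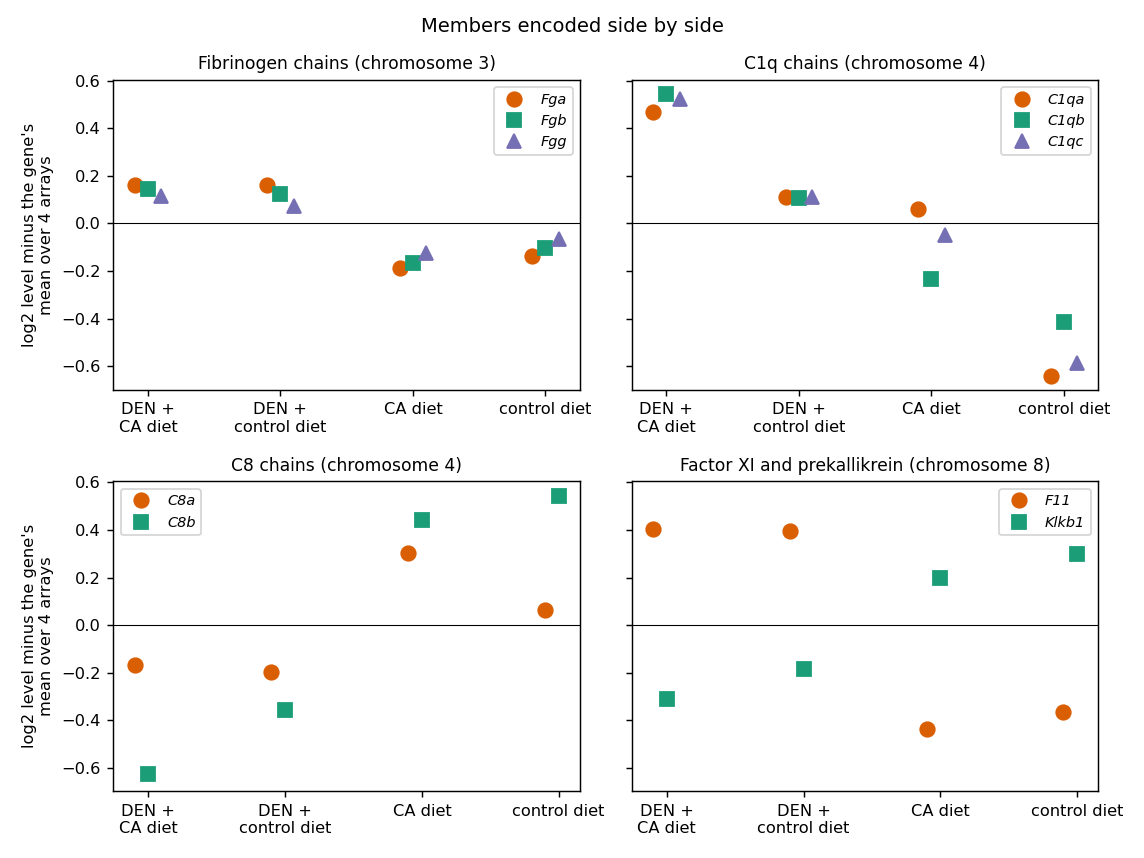
Log2 level of members that lie side by side on a chromosome, each minus the gene's own mean over the 4 arrays, in the 4 liver pools. Each point is 1 gene on 1 array; F11 lies above its mean in both DEN pools and Klkb1 below it, while the 3 chains of C1q lie highest in the DEN pool on the CA diet and lowest in the control diet pool.

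Fibrinogen, the precursor of fibrin, consists of 3 chains whose genes lie together on chromosome 3. Fga had 13.38 in each of the DEN pools, against 13.03 in the CA diet pool and 13.08 in the control diet pool. Fgb had 14.12 and 14.10 in the DEN pools on the CA and control diet, against 13.81 and 13.87. Fgg had 14.09 and 14.05 in these DEN pools, against 13.85 and 13.91. All 3 chains were thus higher after DEN on both diets, but by at most 0.35. Of the 2348 genes of high level, 39.7% were higher on both diets. The largest absolute difference of a hybridization control was 0.37 on the CA diet, above all 3 chains, and 0.203 on the control diet, below Fga (0.30) and Fgb (0.24) and above Fgg (0.14). Centring each array on the median of genes at or above the median level lowers all genes after DEN on the control diet by 0.16 and turns Fgg to -0.03, while Fga and Fgb stay above 0 at 0.14 and 0.07.

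The vitamin K-dependent factors and protein C with its cofactor protein S differed by less than 0.4 after DEN. F2, prothrombin, had 13.41 and 13.46 in the DEN pools on the CA and control diet, against 13.34 and 13.31 without DEN. F9, factor IX, differed by -0.36 and -0.24, and F7, factor VII, which starts clotting together with tissue factor, by -0.09 and 0.19. F10, factor X, had 11.32 and 11.10 in these DEN pools, against 11.42 and 11.02. Differences of F10, of Proc, protein C, and of Pros1, protein S, lay between -0.19 and 0.09. F5, the cofactor of factor X, differed by 0.14 and 0.09, and F13b, the carrier of the fibrin-crosslinking factor XIII, by -0.21 and -0.27. Plasminogen (Plg) had 13.46 and 13.51 in the DEN pools on the CA and control diet, against 13.52 and 13.46, and vitronectin (Vtn), an adhesive protein that also binds the plasminogen activator inhibitor, had 13.01 and 13.08, against 13.19 and 13.12. On the probe sets used, differences of Plg, the histidine-rich glycoprotein that binds it (Hrg) and Vtn were between -0.18 and 0.13. Means of F2, Plg, Hrg and Vtn ran from 12.97 to 13.49, also near the top of the array's range. The second Vtn probe set differed by -0.42 on the CA diet and -0.16 on the control diet. Cfb, factor B, the protease of the alternative pathway, had 11.58 and 11.31 in the DEN pools on the CA and control diet, against 11.42 and 11.15 without DEN. Cfi, factor I, a protease that degrades C3b, had 13.29 and 13.28 in these DEN pools and differed by 0.18 and 0.28 from the pools without DEN.

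On the probe sets used, 8 of 8 measured transcription factors of the liver listed beside these genes were lower after DEN on the CA diet. On the control diet 6 of 8 were. Of all 18194 genes, 9359 and 9578 were lower on these diets. Some of the differences were close to 0. Stat3 was at -0.01 on the CA diet, with its highest probe set at 0.19, and Foxa1 at -0.05 on the control diet. Cebpb, a factor of the acute phase response, had 10.14 and 10.56 in the DEN pools on the CA and control diet, against 11.36 and 11.37 without DEN. Nr1h4, the gene of FXR, had 8.58 and 8.96 in these DEN pools, against 9.49 and 9.74. Hnf4a, a main regulator of hepatocyte genes, differed by -0.48 and -0.12. Whether these levels have a part in those of the members was not tested.

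Among the members made outside hepatocytes, Plat, tissue-type plasminogen activator, had the largest difference of all. Plat stood at 5.77 and 5.94 in the DEN pools on the CA and control diet, against 4.25 and 4.44 without DEN. The levels without DEN lie below 4.855, and with them raised to that value Plat was at least 1.89-fold higher on the CA diet and at least 2.12-fold higher on the control diet. The second Plat probe set, at 4.23 in the control diet pool, differed by 0.02 and -0.24. Thbd, thrombomodulin, the thrombin receptor of endothelial cells that activates protein C, had 6.46 and 6.27 in the DEN pools on the CA and control diet, against 5.96 and 5.62. Plaur, the urokinase receptor, differed by 0.34 and 0.16 on these diets. On the probe sets used, all 8 endothelial markers were also higher after DEN on both diets, as were 32.9% of all genes. The lowest probe set of Cdh5 differed by -0.17 on the CA diet and -0.30 on the control diet. That of Clec4g differed by -0.32 on the control diet. Medians of the 8 markers were 0.54 on the CA diet and 0.50 on the control diet. On the control diet 2 of them lie within the 0.16 that centring takes off, the lowest at 0.01 and Kdr at 0.13. The log2 of their summed level was 11.01, 10.74, 10.50 and 10.45 in the DEN pool on the CA diet, the DEN pool on the control diet, the CA diet pool and the control diet pool, and Pecam1 was below 4.855 on average. Stellate cell and fibroblast markers had medians of 0.33 and 0.72 on the CA and control diet. Of these, 6 and 5 of 8 were higher, where 47.8% and 46.7% of all genes were. Their summed levels were 11.94, 12.13, 11.72 and 11.56 in the same order. The part of either cell type in the levels of Plat and Thbd was not tested.

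The CA diet against the control diet without DEN shows livers with added bile acid and no carcinogen. C1qa and C1qc had the largest differences, and C1qb on the probe set used had the 14th largest increase of the 41. None of the 41 members was 2-fold different, beside 0.478% of all genes higher and 0.407% lower. The median absolute difference was 0.115 over the members and 0.134 over all genes. C1qa had the largest difference with 0.70, followed by C1qc with 0.54, F3 with 0.48 and Cfp with 0.41. C1qa was also the only member beyond 1.5-fold, where 2.02% of all genes were higher and 1.49% lower.

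Hepatocyte-secreted factors ranged from -0.19 (C4bp) to 0.40 (F10) on the CA diet without DEN. All 6 genes of the vitamin K-dependent factors and the protein C system had differences above 0, from 0.04 for F2 (-0.00 with arrays centred) to 0.40 for F10, where 50.5% of all genes lay above 0. F7 and Pros1 differed by 0.31 each, Proc by 0.22 and F9 by 0.10. The largest absolute difference of a hybridization control was 0.305 in this comparison, above F2, F9 and Proc and close to F7 and Pros1. The other 2 probe sets of F10 differed by 0.12 and -0.13. After DEN the 6 genes were divided, with 3 above 0 and 3 below, from -0.05 to 0.22. The fibrinogen chains differed by -0.05 to -0.06 without DEN and by no more than 0.04 after it. Kng1 differed by -0.11 and 0.03, and its other probe set by 0.12 and -0.05. Nr0b2, a gene induced by FXR, had 9.09 in the CA diet pool against 8.22 in the control diet pool, and 8.86 against 8.53 after DEN. The genes of fibrinogen and kininogen, known as FXR targets from human hepatocytes, differed by at most 0.12 either way between the diets on any probe set. Their probe sets used had means from 13.22 to 13.97, near the top of the array's range, so small differences there do not show constancy. Whether FXR has a part in any of these levels was not tested.

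After DEN, the CA diet pool likewise had no member at least 2-fold different from the control diet pool, beside 0.253% of all genes higher and 0.346% lower. Cfp alone was beyond 1.5-fold, where 1.37% of all genes were higher and 1.46% lower. The 4 highest members were Cfp with 0.61, C1qb with 0.45, C1qc with 0.40 and C1qa with 0.36, which are the 4 myeloid genes. The lowest were F3 with -0.28, C8b and C4bp with -0.27 each, and F12 with -0.24. Across the 41 members the diet effects from both pairs of arrays, none of them shared, correlated at 0.55 (0.30 over all genes, 0.58 over those of high level), and 24 members (58.5%) shared their direction, beside 54.4% of all genes and 66% of those of high level. Of the hepatocyte-secreted factors 17 of 32 did.

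**Figure D3:**
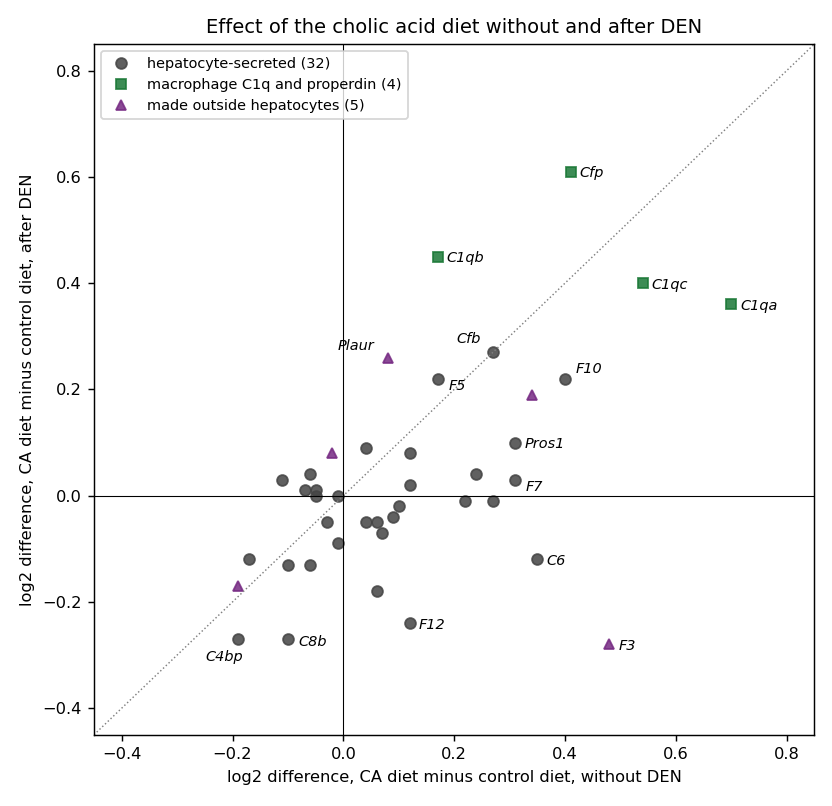
Log2 difference of each of the 41 measured members between the CA diet and the control diet, without DEN (x axis) and after DEN (y axis), by cell source. Each point is 1 gene and each axis the difference of 2 arrays; the 4 myeloid genes lie above 0 on both axes, from 0.17 to 0.70 without DEN and from 0.36 to 0.61 after it.

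C1q is a bundle of 3 kinds of chain, whose genes lie together on chromosome 4. C1qa had 9.19 in the DEN pool on the CA diet and 8.83 in the DEN pool on the control diet, against 8.78 in the CA diet pool and 8.08 in the control diet pool. C1qc had 8.10 and 7.69 in the DEN pools on the CA and control diet, against 7.53 and 6.99 in the pools without DEN. C1qb had 9.38 and 8.94 in these DEN pools, against 8.60 and 8.42. For all 3 chains the DEN pool on the CA diet was highest and the control diet pool lowest. The probe set used for C1qb gave a difference of 0.17 on the CA diet without DEN, and its other probe sets gave 0.96 and 0.40. After DEN these other probe sets gave 1.10 and 0.50 on the control diet, and 0.65 and 0.58 on the CA diet. Cfp, properdin, which stabilises the enzyme of the alternative pathway and comes from monocytes and neutrophils, had 7.56 and 6.95 in the DEN pools on the CA and control diet, against 6.96 and 6.56. The second Cfp probe set, with 5.50 in the control diet pool, differed by at most 0.08 in these 4 comparisons.

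Most macrophage and Kupffer cell markers were higher beside these genes. On the CA diet 12 of 12 were higher without DEN (median 0.61) and 12 of 12 after DEN (median 0.41). Of all genes, 50.5% and 49.4% were. In DEN pools against pools without DEN, 11 of 12 markers were higher on the CA diet (median 0.55), beside 47.8% of all genes. On the control diet 10 of 12 were (median 0.67), beside 46.7% of all genes. The log2 of their summed level was 13.25 in the DEN pool on the CA diet, 12.82 in the DEN pool on the control diet, 12.41 in the CA diet pool and 11.79 in the control diet pool, and none of the 12 had a mean below 4.855. The summed level of the 3 chains of C1q followed the same order, with 10.57, 10.17, 9.98 and 9.53. This order is not particular to macrophage markers. Summed levels of endothelial, neutrophil, bile duct cell (7.62, 7.25, 6.94 and 6.67) and adipocyte markers (9.13, 8.95, 7.94 and 7.81) had it too. Those of hepatocyte, monocyte and dendritic cell, stellate cell, platelet, T cell and B cell markers did not. Clec4f and Timd4, markers of resident Kupffer cells, differed by 0.42 and 0.53 on the CA diet without DEN, but by 0.00 each after DEN on the control diet. Cd163, a scavenger receptor, differed after DEN by -1.01 on the CA diet and -0.67 on the control diet. Marco differed by 0.20 and 0.51 on these diets, and its lowest probe set by -0.44 and -0.33. Markers of other myeloid cells were divided. Of 7 monocyte and dendritic cell markers, 4 were higher after DEN on each diet (medians 0.07 on the CA diet, 0.33 on the control diet). H2-Aa was at 1.52 and 2.04, H2-Ab1 at 1.44 and 2.06, Cd74 at 1.01 and 1.31 and Itgax at 0.07 and 0.33. Ccr2 was at -0.23 and -0.11, Flt3 at -0.13 and -0.14 and Xcr1 at -0.41 and -0.17. The highest probe set of Ccr2 differed by 0.77 and 1.12. The log2 of the summed level of the 7 markers was 10.99 and 11.02 in the DEN pools on the CA and control diet, against 9.72 and 9.33. Xcr1 was below 4.855 on average. Of 5 neutrophil markers, 3 were higher after DEN on the CA diet (median 0.10) and 4 on the control diet (median 0.14). S100a8 was at 1.75 and 2.48 and S100a9 at 1.77 and 1.78. Csf3r was at 0.10 and 0.07, Mpo at -0.12 and -0.19 and Elane at -0.19 and 0.14. Without DEN, S100a8 (4.82 and 3.71 on the CA and control diet) and S100a9 on the control diet (4.59) lie below 4.855. With these levels raised, S100a8 was at least 3.27-fold and 2.53-fold higher. The summed level of the 5 neutrophil markers was 8.54 and 8.25 in the DEN pools on the CA and control diet, against 7.74 and 7.51. Mpo and Elane were below 4.855 on average. The part of any of these cells in the levels of C1q and Cfp was not tested.

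**Figure D4:**
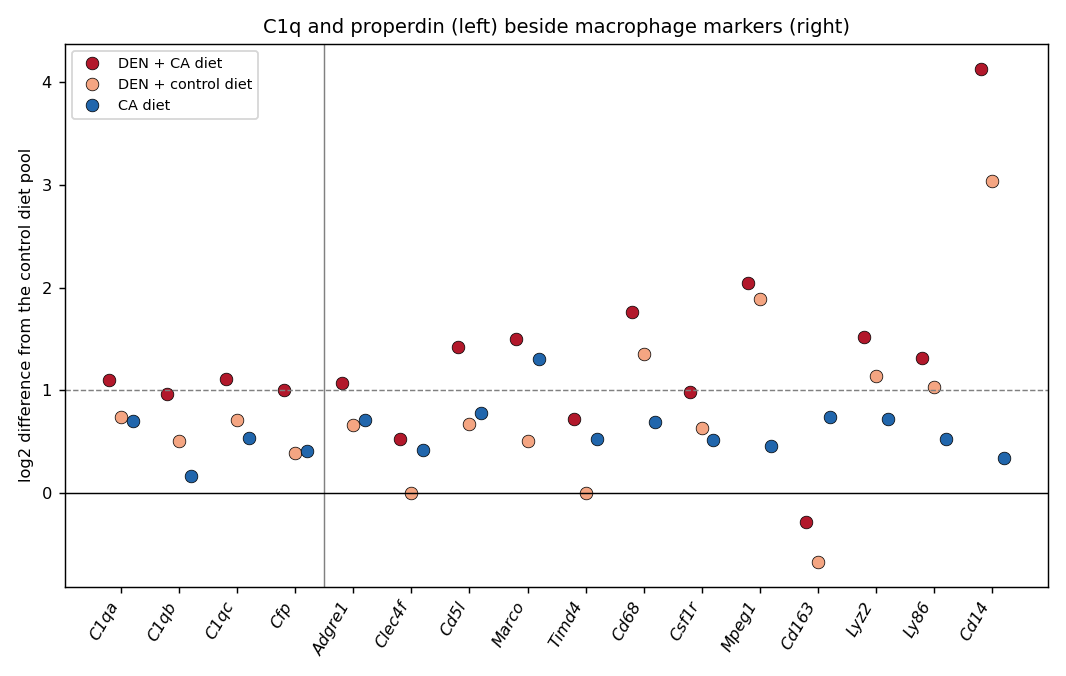
Log2 difference from the control diet pool for the 3 chains of C1q and properdin (left of the line) and for 12 macrophage and Kupffer cell markers (right), in the DEN pool on the CA diet, the DEN pool on the control diet and the CA diet pool. Each point is 1 gene on 1 array; the C1q chains reach 0.96 to 1.11 in the DEN pool on the CA diet, and Cd14 reaches 4.13.

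DEN with the CA diet against neither treatment shares arrays with all the other comparisons and adds the 2 steps described above. In this comparison 3 members were 2-fold higher or more, beside 4.4% of all genes, and 1 was 2-fold lower or more, beside 1.5% of all genes. From 1.5-fold on, 7 were higher and 5 lower, beside 9.14% and 5.39% of all genes, and 8.86% and 13.5% of the genes of high level. Beyond 2-fold, the higher ones were Plat (1.33, at least 1.89-fold with low levels raised), C1qc (1.11, 2.16-fold) and C1qa (1.10, 2.15-fold), and the lower one was C8b (-1.17, 2.25-fold). Just inside and just outside the 2-fold threshold lay C1qa at 1.10 and Cfp, which rounds to 1.00 but is under it, with C1qb next at 0.96. The other probe sets of C1qb differed by 1.61 and 0.98. With each array centred on the median of genes at or above the median level, Plat alone was 2-fold higher or more. With low levels raised, C1qa and C1qc were, and with the mean over probe sets C1qa, C1qb and C1qc were. Next among the lower members were Masp1 with -0.83, Mbl1 with -0.72, C9 with -0.61 and Klkb1 with -0.61. The other probe sets of Masp1 differed between -0.22 and 0.19.

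**Figure D5:**
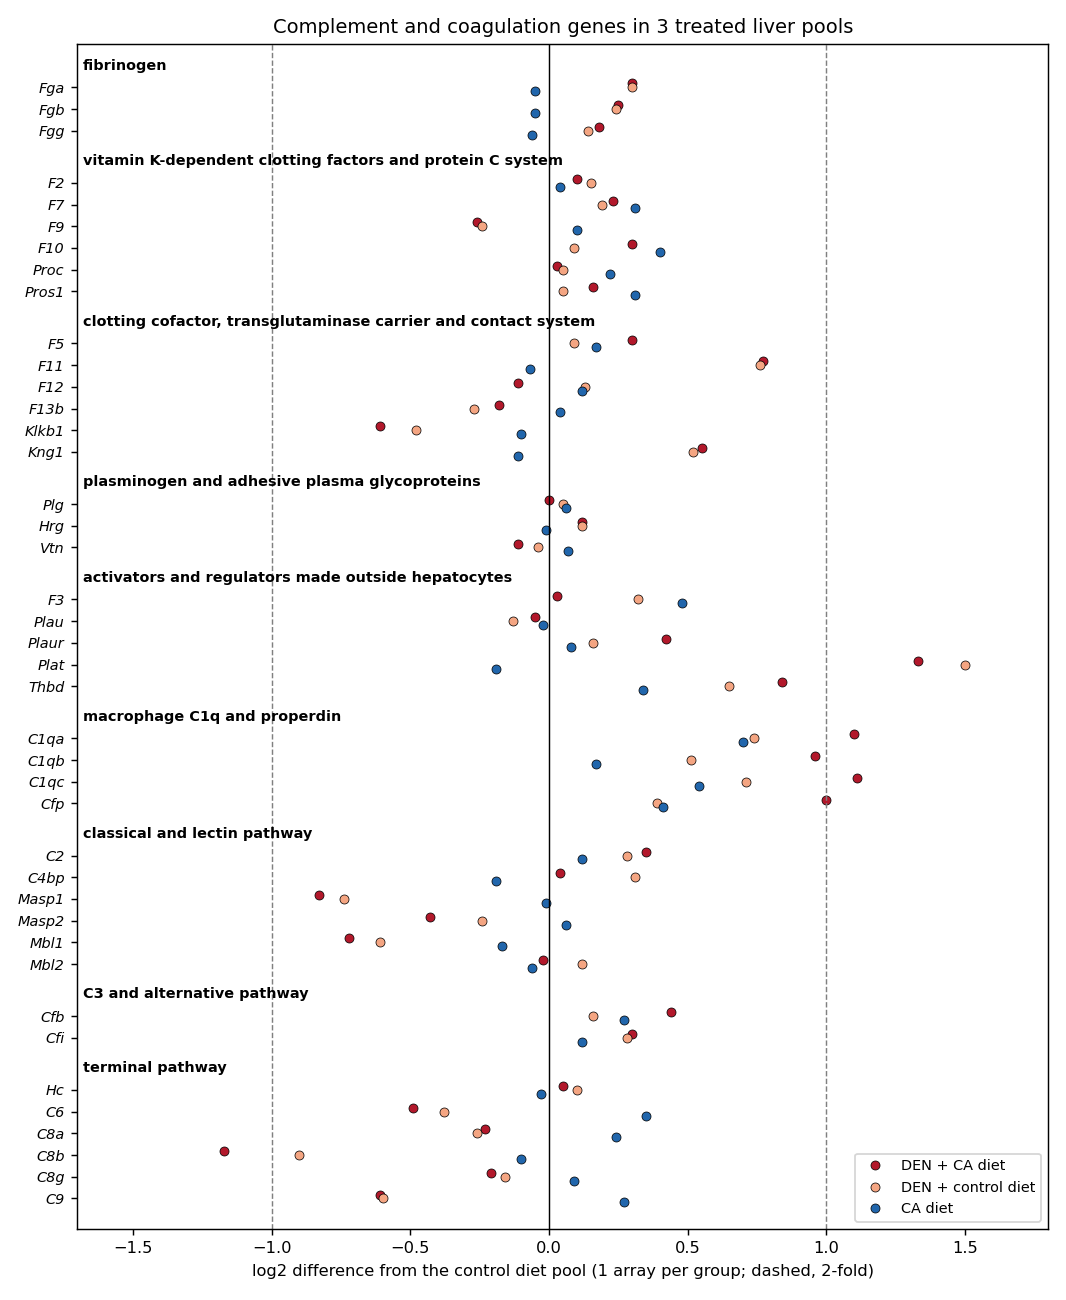
Log2 difference from the control diet pool for the 41 measured members, grouped by role, in the DEN pool on the CA diet, the DEN pool on the control diet and the CA diet pool. Each point is 1 gene on 1 array and the dashed lines mark 2-fold; the points beyond them are Plat in both DEN pools, and C1qa, C1qc and C8b in the DEN pool on the CA diet, with Cfp at the line.

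Other genes of both cascades were taken from lists of 22 clotting and fibrinolysis genes and 23 complement genes, with 19 of each measured. Of the 19 clotting and fibrinolysis genes, Anxa2 and Procr had a difference above 1 in some comparison and none had one below -1. Anxa2, annexin A2, a cell surface receptor for plasminogen and its activator, had 10.49 and 10.40 in the DEN pools on the CA and control diet, against 7.19 and 6.88 without DEN, while its lowest probe set differed by 0.13 and -0.11. Procr, the endothelial receptor of protein C, had 5.50 and 5.16 in these DEN pools, against 4.77 and 4.27. With levels under 4.855 raised, Procr was at least 1.57-fold higher in the DEN pool on the CA diet than in the control diet pool, which is short of 2-fold. Serpinf2, the plasmin inhibitor of hepatocytes, differed by 0.64 on the CA diet and 0.70 on the control diet, and Serpinc1, antithrombin, by 0.02 and 0.01. Of the 19 complement genes only Itgb2, the beta chain of the leukocyte receptors for C3 fragments, was 2-fold different, with 6.88 and 6.67 in the DEN pools on the CA and control diet, against 6.09 and 5.22. The genes named next, like Serpinf2, Serpinc1, Hnf4a and Nr0b2 above, were under 2-fold and were chosen after their values were seen. Vsig4, a complement receptor of Kupffer cells, was higher on the CA diet by 0.64 without DEN and by 0.81 after DEN, and Fcna, ficolin A, a macrophage starter of the lectin pathway, by 0.10 and 0.92. C1ra and C1s1, the proteases that bind C1q and come mainly from hepatocytes, differed by 0.40 and 0.30 on the CA diet without DEN and by 0.11 each after DEN. After DEN they differed by -0.40 and -0.38 on the CA diet and -0.10 and -0.19 on the control diet. On the probe sets used, the C1q chains they act with differed there by 0.40 to 0.79 and by 0.51 to 0.74.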

How the data were processed

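Liver RNA pools of 4 groups were each measured on 1 Affymetrix mouse array. The deposited values are log2 expression values that the authors made in Partek 6.5 by RMA (per the submitters' processing notes), with options not stated. RMA draws the arrays' distributions together, so a shift of most genes would be removed. Of 45101 probe sets, 34958 had 1 gene symbol in the platform annotation, and the symbols of all 41 measured members matched RefSeq (GRCm38.p6) by gene identifier. A gene took its probe set with the highest 4-array mean, and 11 members had several. The 5 comparisons are differences of 2 arrays, counted from 2-fold on over all measured genes without a filter. With 1 array per group there was no test, and the number of arrays limits the precision. A fold against a level under 4.855, the median of all probe sets, was computed with that level raised to it. Values on all arrays are given for members at least 2-fold different, for those of highest mean and largest remaining difference in each role, and for 2-fold different genes of the other lists. Members, lists and this rule were chosen with earlier results of these data known. The background of genes at high level was added after seeing the data. Alternatives were the mean over probe sets, 1.5-fold, quantile normalization, centring on the median of genes at or above 4.855, raising low values, and a filter at 4.855. The steps were tested on simulated data. Python 3.11.15, numpy 2.4.6 and pandas 2.3.3 were used.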

Additional observations from a re-analysis of the deposited data

Results flagged for a closer look

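F3, tissue factor, the starter of clotting, differed in opposite directions in the pairs of arrays that share a treatment. The CA diet differed from the control diet by 0.48 without DEN and by -0.28 after DEN. DEN pools differed from pools without DEN by 0.32 (control diet) and -0.45 (CA diet). Its levels were 5.48 and 5.76 in the DEN pools on the CA and control diet, against 5.92 and 5.44 without DEN. With 1 array per group the difference between these effects was not tested. Over all genes, 54.4% shared the direction of their diet effects and 70.4% that of their DEN effects.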

How the results depend on the processing

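No paired analysis was possible because each group has 1 array, and no replicate could be left out. Quantile normalization and a filter at the median level left all 10 counts of members beyond 2-fold as they were. With the mean over probe sets, 0 members were at least 2-fold higher after DEN under either diet, since Plat was under the threshold with 0.63 (control diet) and 0.77 (CA diet). With low values raised, 0 were higher after DEN on the CA diet. For both treatments against neither, the higher members were C1qa and C1qc with low values raised, and C1qa, C1qb and C1qc with the mean over probe sets. Centring each array on the median of genes at or above 4.855 gave 1 member lower after DEN on the control diet (C8b) and 1 higher for both treatments against neither. A 1.5-fold threshold gave 1 higher on the CA diet without DEN, 5 higher and 4 lower after DEN on the control diet, 1 higher on the CA diet after DEN, 5 higher and 4 lower after DEN on the CA diet, and 7 higher and 5 lower for both treatments against neither. No member beyond 2-fold changed its sign under an alternative. Masp1 stood at -0.12 and -0.18 after DEN on the control and CA diet with the mean over its probe sets.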
